A study of Mus musculus with 6 samples.

Results

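Genes of bone morphogenetic protein (BMP) signalling and of the Id family, namely Bmp1, Bmp4, Bmpr1a, Bmpr2, Smad1, Smad6, Id1, Id2, Id3 and Grem1, were compared between 2 sorted groups of Mvt1 cells, a mouse mammary carcinoma cell line of the FVB/N strain. They were chosen by symbol, as every gene annotation equal to one of these 10 names, out of 14765 gene annotations with reads. Of the 10, 9 had enough reads to be tested among 11125 tested genes, and Grem1 did not. The cells were sorted by flow cytometry into a CD24- group, without CD24 on the cell surface, and a CD24+ group. Both groups were grown as adherent cultures in the same serum-containing medium without further treatment, and messenger RNA was sequenced from 3 plates of each. Both groups come from 1 cell line, and no independent sorts are described, so p-values measure the spread between plates. Values are CPM, edgeR's unit for counts scaled to the gene reads of a library with edgeR's TMM factors, and a log2 fold-change above 0 is higher in CD24+ cells.

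BMPs are secreted ligands that bring together type I and type II receptor kinases on the cell surface. The type I receptor then phosphorylates Smad1, Smad5 and Smad9, which enter the nucleus with Smad4 and activate targets such as the Id genes and the inhibitory Smads, Smad6 and Smad7. Id proteins lack a DNA-binding region and hold E proteins, a class of helix-loop-helix transcription factors, away from DNA, and in the mammary epithelium they are known for their part in growth and differentiation.

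Id1, Id2 and Id3 are related in sequence, so a stretch of their conserved region is shown to see whether reads could be assigned to the wrong gene. These are 120 bases of coding sequence from the helix-loop-helix region (GENCODE M21 transcripts, bases 178 to 297 of the coding sequence of Id1, 109 to 228 of Id2 and 124 to 243 of Id3), written 5′ to 3′, with capitals for the 77 bases that all 3 genes share.
Id1: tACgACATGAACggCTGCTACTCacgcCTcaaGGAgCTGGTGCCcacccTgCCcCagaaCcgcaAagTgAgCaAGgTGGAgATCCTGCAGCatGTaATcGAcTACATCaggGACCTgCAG
Id2: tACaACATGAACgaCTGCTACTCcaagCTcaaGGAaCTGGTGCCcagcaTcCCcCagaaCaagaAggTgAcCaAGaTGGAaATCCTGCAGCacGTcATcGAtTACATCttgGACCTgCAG
Id3: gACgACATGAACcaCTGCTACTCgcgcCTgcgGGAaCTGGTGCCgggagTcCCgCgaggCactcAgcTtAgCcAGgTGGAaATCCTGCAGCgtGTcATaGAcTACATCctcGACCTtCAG

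Id1 and Id2 were identical at 98 of the 120 bases, Id1 and Id3 at 85, and Id2 and Id3 at 86. The longest stretch that transcripts of any pair shared without a difference was 19 bases (Id2 and Id3), shorter than the 47-nt reads. An exactly matched read from these genes therefore belonged to 1 of them.

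The sort was visible in the counts. Cd24a, which encodes the sorted surface protein, had a level of 10.2 ± 2.79 CPM without and 77.1 ± 7.30 CPM with surface CD24 (SD over 3 plates), a log2 fold-change of 2.91 (edgeR adjusted p = 5.39e-07). It was 1.37 by median coverage over the transcript, a scale to which 10 is added before the log (limma adjusted p = 1.13e-04). A library held between 6491832 gene reads (CD24+ replicate 1) and 19100843 gene reads (CD24+ replicate 3). The labels call the cells mammary epithelial, and the keratins Krt8 (1229 ± 76.0 and 596 ± 60.8 CPM in CD24- and CD24+ cells) and Krt18 (732 ± 36.0 and 213 ± 17.1 CPM) were well expressed. Of the other defining epithelial genes, Cdh1 had 2 reads and Epcam 6 in all libraries together.

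Several cell type markers differed between the groups. Of all tested genes, 46.1% did (edgeR, adjusted p below 0.05), 23.8% being higher and 22.3% lower in CD24+ cells. All 3 tested of 8 epithelial markers were lower in CD24+ cells, and the list summed to 1847 to 2040 CPM in CD24- libraries and 759 to 902 CPM in CD24+ libraries. When a read sequence counts only once however often it was seen, Krt8 had a log2 fold-change of -0.46 and missed the threshold (adjusted p = 0.0712), and that of Krt18 went from -1.78 to -0.88. Such a count cannot rise once every read of a transcript has been seen, and Krt8 and Krt18 had 60574 and 30202 reads. Whether this limit shrank their values was not tested. All 4 tested of 7 fibroblast markers (Pdgfra, Dcn, Col1a1 and Col1a2) were higher, with sums of 5.75 to 10.4 and 14.9 to 20.4 CPM. Dcn, Col1a1 and Col1a2 had enough reads to be tested only with their CD24+ libraries. For these genes, being tested and being higher are therefore not separate results. The groups overlapped for Pdgfra, which missed the threshold without CD24+ replicate 2 or 3 (adjusted p = 0.0631 and 0.0593). Col1a2 missed it under DESeq2 (adjusted p = 0.055), without CD24- replicate 1 or 2 and without CD24+ replicate 1 or 2 (0.0658 to 0.105). Both tested leukocyte markers of 7 were lower, with sums of 46.7 to 80.5 and 7.17 to 9.44 CPM, nearly all from Cd68, and Ptprc, which defines the lineage, had 2 reads in all. Of 6 endothelial markers, 2 were tested and Cdh5 was lower, with sums of 2.70 to 4.74 and 0.786 to 2.04 CPM. Cdh5 and Itgam, the tested leukocyte marker other than Cd68, had enough reads to be tested through CD24- libraries alone. The part of these differences in the results that follow was not tested. In RNA from a whole plate, fewer cells that express a gene and less RNA per cell cannot be told apart.

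Of the 9 tested members, 4 were higher in CD24+ cells, Bmp4, Bmpr1a, Smad6 and Id2, where 23.8% of all tested genes were higher, and none was lower, where 22.3% of all tested genes were (edgeR, adjusted p below 0.05, 46.1% in either direction). The other 5, Bmp1, Bmpr2, Smad1, Id1 and Id3, did not pass. The groups did not overlap in 5 of the 9, compared with 57.3% of all tested genes. The median log2 fold-change was 0.19 over the 9 members and 0.02 over all tested genes. Bmp4 met the read filter through its CD24+ libraries alone. Its place in these counts and in the median is therefore not separate from its being tested.

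**Figure D1:**
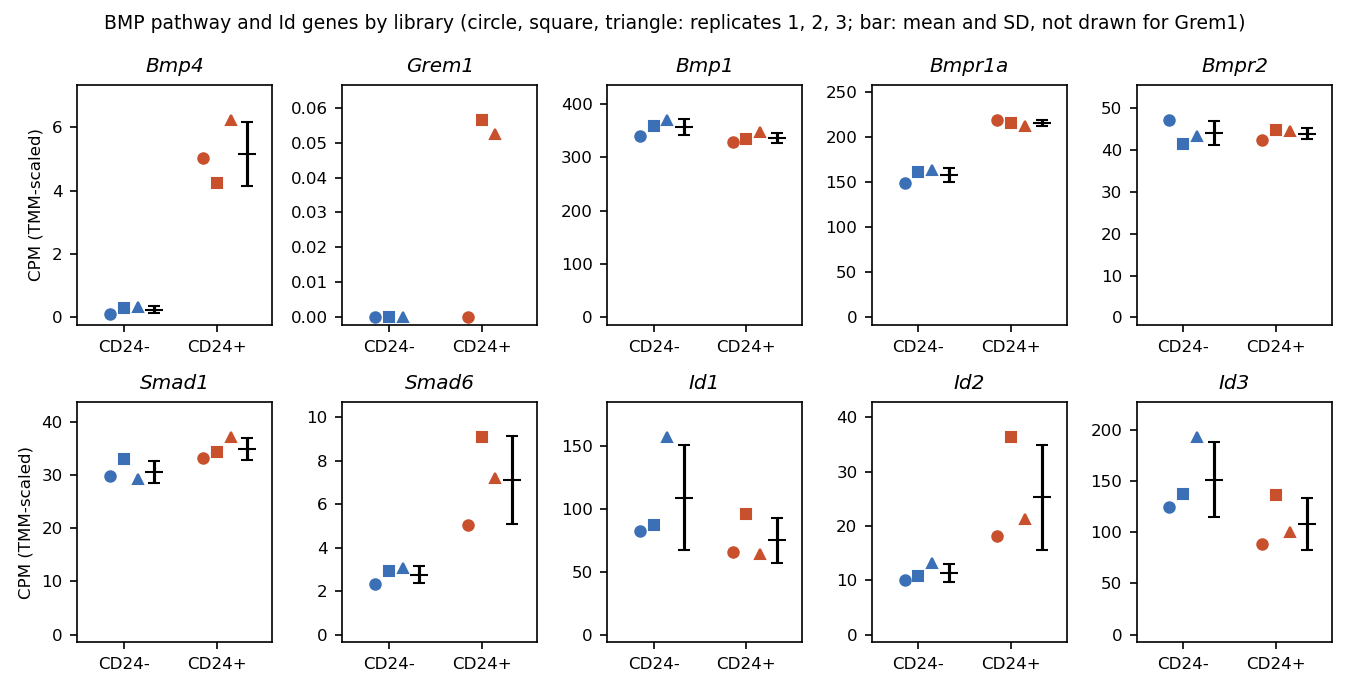
TMM-scaled CPM of the 10 genes (vertical axes, each including 0) in the 3 CD24- libraries (blue) and the 3 CD24+ libraries (orange), with the mean and SD beside each group. Bmp4, Bmpr1a, Smad1, Smad6 and Id2 show no overlap between the groups, Id1 and Id3 overlap, and Grem1 has a single read in each of 2 libraries.

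Bmp4, a BMP ligand, had the largest change among the members. Its reads lay between bases 47003289 and 47008898 of chromosome 14 (mm9, the build of the deposited positions). It had 0.105, 0.284 and 0.338 CPM in CD24- replicates 1, 2 and 3, which are 1, 3 and 3 reads, and 5.03, 4.23 and 6.23 CPM in CD24+ replicates 1, 2 and 3, which are 32, 75 and 119 reads. Every CD24+ library was far above every CD24- library, although Bmp4 remained a low transcript in both groups. The log2 fold-change was 4.37 (SE 0.39, edgeR adjusted p = 9.02e-06), the 83rd largest in absolute size among all tested genes. Bmp4 met the read filter through its CD24+ libraries alone, so this rank sets a ratio to almost no reads beside other genes. With so few reads the size of the change is known only roughly: the 226 reads against 7, scaled to depth, gave a ratio of 21.6 with a 95% exact interval of 10.3 to 54.4, which covers counting error only. Most Bmp4 reads, 188 of 233, came from its coding sequence, where the log2 ratio was 4.31. A gene on the opposite strand, Gm15217, overlaps its exons, and the library kit does not keep the strand, so reads in the overlap cannot be told apart. Over the 212 reads that match transcripts of Bmp4 and of no other gene in GENCODE M21 (1, 3 and 3 in CD24- and 29, 71 and 105 in CD24+ replicates 1, 2 and 3), the log2 fold-change was 4.20 (adjusted p = 9.7e-06).

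Of 14 BMP family ligands listed for comparison, 11 had reads, and only Bmp4 and Bmp7 had enough reads to be tested. They moved in opposite directions. Bmp4 met the read filter through CD24+ libraries alone, and Bmp7 would not have met it without CD24- libraries. Their opposite directions thus partly follow from the filter. Bmp7, a ligand of another BMP subgroup, had 9.57, 6.35 and 7.10 CPM in CD24- replicates 1, 2 and 3 and 1.26, 0.508 and 1.10 CPM in CD24+ replicates 1, 2 and 3. It was lower in CD24+ cells, at a log2 fold-change of -3.09 (SE 0.32, edgeR adjusted p = 2.83e-05), but -0.17 (limma adjusted p = 0.00719) by median coverage. The ratio of Bmp4 to Bmp7 reads in a library was 0.0110, 0.0448 and 0.0476 in CD24- replicates and 4.0, 8.33 and 5.67 in CD24+ replicates, a ratio chosen after the values were seen. Bmp7 reads thus outnumbered Bmp4 reads in every CD24- library and Bmp4 reads outnumbered Bmp7 reads in every CD24+ library. The summed level of the listed ligands was 7.11 to 10.4 CPM in CD24- libraries and 5.98 to 8.59 CPM in CD24+ libraries, 2 ranges that overlap.

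Grem1 encodes gremlin 1, a secreted protein that binds BMP4 and keeps it from its receptors. It had no read in the 3 CD24- libraries or in CD24+ replicate 1, and 1 read each in CD24+ replicates 2 and 3. That is below the 3 reads taken here as the limit that a count of 0 allows, so Grem1 was not detectable at this depth as different between the groups. Its reads lay between bases 113589027 and 113589843 of chromosome 2 (mm9).

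Other BMP antagonists were present. Of 17 listed antagonists, 8 were tested, with a median log2 fold-change of 1.08 against 0.02 over all tested genes. In CD24+ cells 4 were higher and 1 lower, where 23.8% and 22.3% of all tested genes were. Fstl1 and Bmper met the read filter through CD24+ libraries alone, Fst and Nbl1 not without them, and Bambi through CD24- libraries alone. The counts and the median thus partly follow from the filter. Fstl1, a follistatin-related secreted glycoprotein, went from 4 reads in CD24- libraries to 161 in CD24+ libraries (log2 fold-change 4.67, edgeR adjusted p = 3.37e-05). Its size was uncertain, at 3.22 over reads that match 1 GENCODE M21 gene and 5.94 without CD24- replicate 1. Bmper, a secreted BMP-binding protein, went from 10 to 204 reads (log2 fold-change 3.73, adjusted p = 1.01e-05). Fst, follistatin, which binds activins and some BMPs, rose from 0.776 ± 0.306 to 7.85 ± 1.79 CPM (log2 fold-change 3.38, adjusted p = 1.13e-05). Nbl1, of the same cystine-knot family as gremlin, was the other antagonist that rose (log2 fold-change 1.51, adjusted p = 0.00176). Bambi, a membrane pseudoreceptor without a kinase domain, fell from 3.24 ± 0.495 to 0.376 ± 0.210 CPM (log2 fold-change -2.88, adjusted p = 7.85e-05). Noggin (Nog), a BMP antagonist, had 2 reads in CD24- and 14 in CD24+ libraries and was too low to be tested. The 5 antagonists that changed had under 10 CPM in every library. Twsg1, the most abundant gene of the list, had 127 ± 10.3 and 136 ± 3.68 CPM in CD24- and CD24+ cells and missed the threshold (log2 fold-change 0.09, adjusted p = 0.377). The list summed to 125 to 147 CPM in CD24- libraries and 160 to 168 CPM in CD24+ libraries.

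Bmp1, despite its name, encodes a secreted metalloprotease that cleaves procollagens and chordin, an antagonist of BMPs. It had the most reads of the 10 genes. It had 340, 358 and 370 CPM in CD24- replicates 1, 2 and 3 and 329, 333 and 346 CPM in CD24+ replicates 1, 2 and 3, over reads between bases 70874365 and 70920040 of chromosome 14 (mm9). The groups overlapped, and the log2 fold-change of -0.08 (95% interval -0.25 to 0.08, edgeR adjusted p = 0.384) did not pass the test. Genes of its enhancer proteins did differ between the groups. Pcolce, which enhances the cleavage of procollagen by Bmp1, rose from 220 ± 28.7 to 734 ± 69.9 CPM (log2 fold-change 1.73, adjusted p = 1.20e-06). It was 0.63 when every sequence counts once (adjusted p = 0.0175), where the limit given for the keratins holds too, as Pcolce had 37532 reads. The related Pcolce2 fell from 110 ± 22.6 to 61.7 ± 11.8 CPM (log2 fold-change -0.82, adjusted p = 0.00211). The related proteases Tll1 and Tll2 had 3 reads and 1 read in all. Of the 5 genes in this list, 3 were tested, with a median of -0.08.

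**Figure D2:**
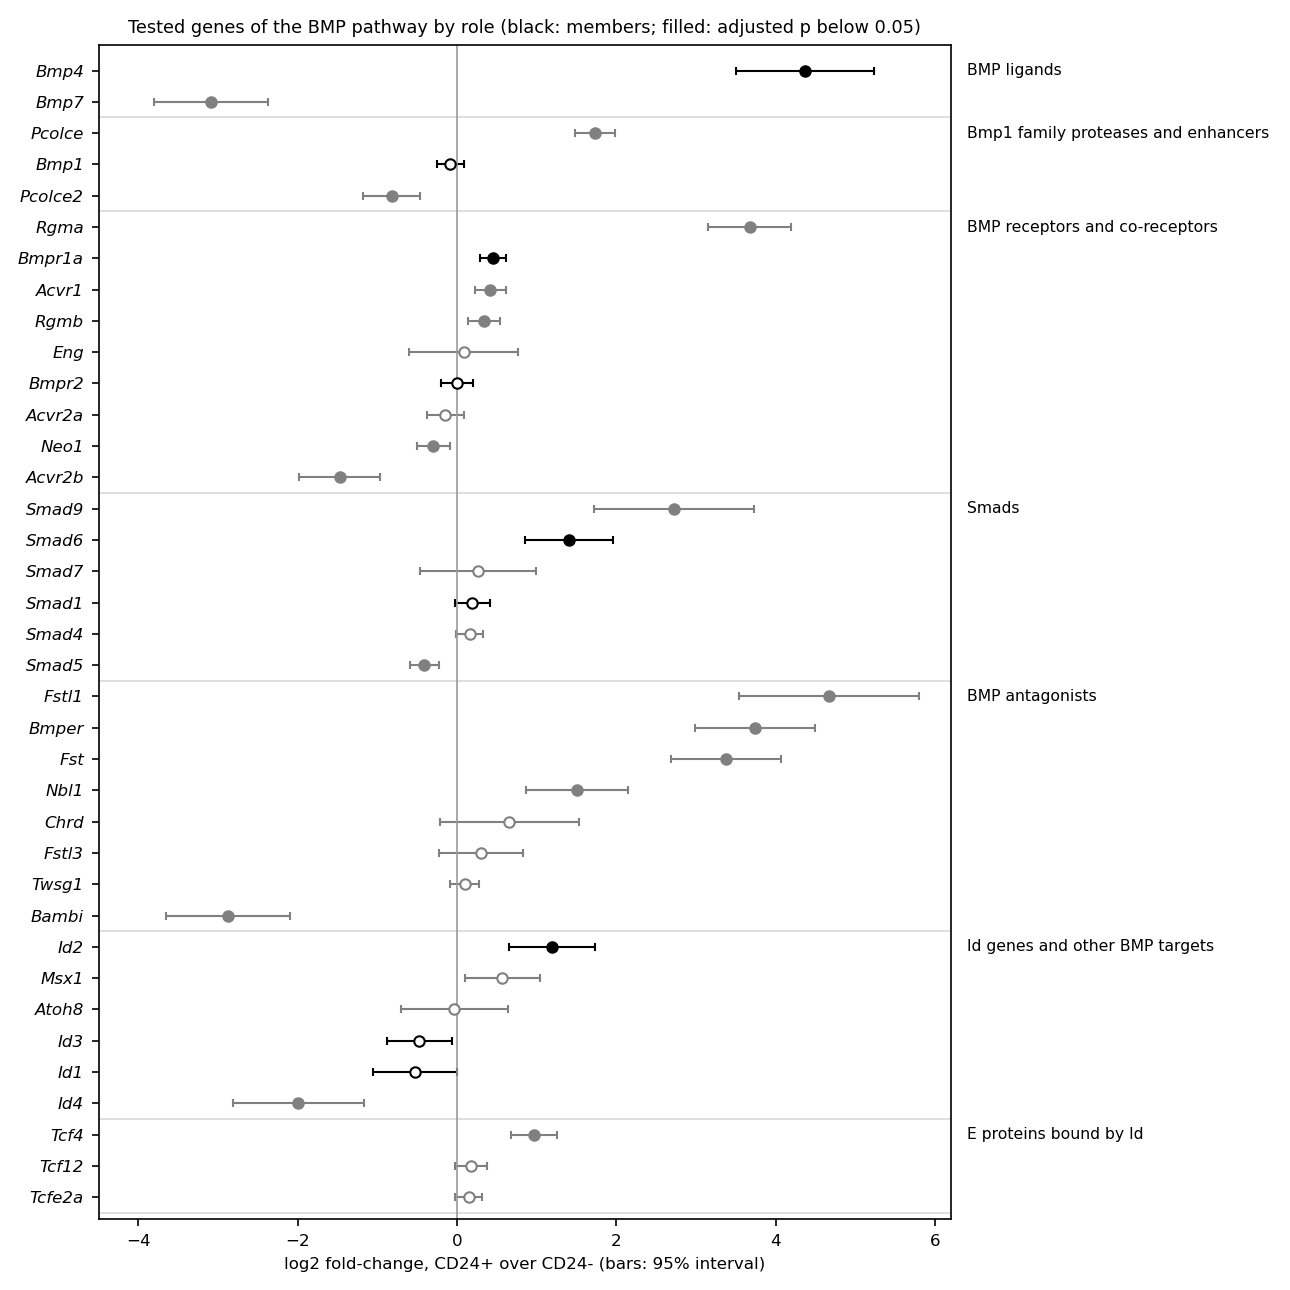
Log2 fold-change of CD24+ over CD24- cells (horizontal axis, points) with its 95% interval (bars) for the tested genes of each role, members in black and other listed genes in grey, filled where the adjusted p was below 0.05. The ligands Bmp4 and Bmp7 lie on opposite sides of 0, as do the antagonists Fstl1 and Bambi, while Bmp1 and Bmpr2 lie near 0.

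Bmpr1a and Bmpr2 encode a type I and a type II BMP receptor. Bmpr1a had 149, 160 and 163 CPM in CD24- replicates 1, 2 and 3 and 218, 215 and 211 CPM in CD24+ replicates 1, 2 and 3, over reads between bases 35224210 and 35315708 of chromosome 14 (mm9). Every CD24+ library was above every CD24- library, and the spread within a group was small. The change was modest, 1.37-fold (log2 fold-change 0.45, SE 0.07, edgeR adjusted p = 6.97e-04). The log2 ratio was 0.41 over coding reads and 0.49 over reads of the 3′ untranslated region, which held 62.0% of its reads. Over the 657 reads of the 5′ untranslated region it was only 0.13 (8.78 and 9.58 CPM in CD24- and CD24+ cells). The gene Gm17110 overlaps Bmpr1a exons on the opposite strand, and reads in the overlap cannot be told apart. Over the 14158 reads that match transcripts of Bmpr1a alone, the log2 fold-change was 0.42 (adjusted p = 0.00116).

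Bmpr2 had 47.2, 41.6 and 43.5 CPM in CD24- replicates and 42.5, 44.9 and 44.6 CPM in CD24+ replicates, over reads between bases 59821434 and 59927652 of chromosome 1 (mm9). The groups overlapped, with a log2 fold-change of 0.00 (95% interval -0.20 to 0.20, edgeR adjusted p = 0.998). The deposited annotation gave 3191 reads to Bmpr2, and 9248 reads matched its GENCODE M21 transcripts alone, so its CPM counts only part of the gene. Of the 12 listed receptors and co-receptors, 9 were tested, with a median log2 fold-change of 0.08. Among them 4 were higher and 2 lower, where 23.8% and 22.3% of all tested genes were. Rgma, a membrane-anchored BMP co-receptor, rose from 1.45 ± 0.544 to 18.7 ± 2.50 CPM (log2 fold-change 3.67, adjusted p = 9.57e-07). Rgma would not have met the read filter without CD24+ libraries, so its being tested and its being higher are not wholly separate results. The type I receptor Acvr1 rose from 35.7 ± 1.96 to 47.6 ± 1.56 CPM (log2 fold-change 0.42, adjusted p = 0.00337). The co-receptor Rgmb rose by a log2 fold-change of 0.34 (adjusted p = 0.0101) and the Rgm receptor Neo1 fell by 0.30 on the log2 scale (adjusted p = 0.023). By median coverage the log2 fold-changes were 0.24 for Rgma, 0.17 for Acvr1 and 0.15 for Rgmb, all still past the threshold. Rgmb missed it without CD24+ replicate 3 (adjusted p = 0.051). Neo1 missed it without CD24- replicate 1 or 3 and without CD24+ replicate 1 or 3 (adjusted p = 0.0582 to 0.0717). It also missed it by median coverage (-0.076, adjusted p = 0.284) and when every sequence counts once (-0.19, adjusted p = 0.13). Acvr2b, a type II receptor for activins and some BMPs, fell from 5.47 ± 0.527 to 1.91 ± 0.414 CPM (log2 fold-change -1.47, adjusted p = 4.63e-04). Bmpr1b, another type I BMP receptor, had 7 reads in all.

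Smad1, which carries the BMP signal, had 29.8, 33 and 29.2 CPM in CD24- replicates 1, 2 and 3 and 33.2, 34.4 and 37.1 CPM in CD24+ replicates 1, 2 and 3, over reads between bases 81862314 and 81923397 of chromosome 8 (mm9). The groups did not overlap, but only just, and the change did not pass the test (log2 fold-change 0.19, 95% interval -0.03 to 0.41, edgeR adjusted p = 0.136). Smad5, which acts beside Smad1, fell from 142 ± 7.40 to 107 ± 6.86 CPM (log2 fold-change -0.41, adjusted p = 0.00231), and missed the threshold by median coverage (-0.19, adjusted p = 0.0638). Smad9, the third Smad of this class, was scarce, with 8 reads in CD24- and 83 in CD24+ libraries (log2 fold-change 2.72, adjusted p = 6.57e-04). Smad4, the partner shared with the transforming growth factor β pathway, missed the threshold, at 0.16 (adjusted p = 0.115).

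Smad6, an inhibitory Smad that acts mainly on BMP signals and is itself a BMP target, had 2.31, 2.94 and 3.04 CPM in CD24- replicates 1, 2 and 3 and 5.03, 9.09 and 7.23 CPM in CD24+ replicates 1, 2 and 3. These are 22, 31 and 27 reads and 32, 161 and 138 reads, between bases 63801022 and 63869173 of chromosome 9 (mm9). All CD24+ libraries were above all CD24- libraries, and they varied more among themselves. The log2 fold-change was 1.41 (SE 0.25, edgeR adjusted p = 0.00112). It was 1.5, 1.57 and 1.52 over reads of the 5′ untranslated, coding and 3′ untranslated parts. The 5′ part had 2, 3 and 6 reads and the 3′ part 3, 3 and 2 in CD24- replicates 1, 2 and 3. Over the 65 reads that matched none of the Smad6 transcripts in GENCODE M21, the log2 ratio was 0.55. Smad7, the inhibitory Smad of both pathways, had 18.4, 15.1 and 41.9 CPM in CD24- replicates and 25.0, 38.2 and 25.3 CPM in CD24+ replicates. Its groups overlapped (log2 fold-change 0.26, adjusted p = 0.544), and without CD24- replicate 3 it was higher in CD24+ cells (0.84, adjusted p = 0.00622). Of the 6 Smads listed, all tested, 2 were higher and 1 lower, with a median of 0.22. Smad9, 1 of the higher ones, met the read filter through CD24+ libraries alone. Among 15 genes that modify Smads or their output, 3 were higher and 2 lower, with a median of 0.08. Over all tested genes, 23.8% were higher and 22.3% lower. Skil, a nuclear repressor of Smad targets, rose (log2 fold-change 0.73, adjusted p = 0.00137, but 0.17 by median coverage, adjusted p = 0.0213), and Nedd4l, a ubiquitin ligase, fell from 50.8 ± 1.98 to 23.6 ± 0.873 CPM (log2 fold-change -1.10, adjusted p = 5.42e-06). The other changes were small, those of the phosphatases Ctdsp2 (0.37) and Ppm1a (0.30) and of Xiap (-0.23). Each of them missed the threshold in at least 3 of the alternatives, Xiap in 9, among them the fit with no filter on low counts (adjusted p = 0.0671).

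Of the 3 Id members, which are targets of the pathway, only Id2 passed the test. It rose in CD24+ cells, and Id1 and Id3 had lower means there. Id2 had 10.1, 10.7 and 13.2 CPM in CD24- replicates 1, 2 and 3 and 18.1, 36.4 and 21.4 CPM in CD24+ replicates 1, 2 and 3, over reads between bases 25778670 and 25780950 of chromosome 12 (mm9). The groups did not overlap, and CD24+ replicate 2 stood above the other CD24+ libraries. The log2 fold-change was 1.19 (SE 0.24, edgeR adjusted p = 0.00269), with 1.14 over coding reads and 1.12 over reads of the 3′ untranslated region. Without CD24+ replicate 2 it was 0.81, still past the threshold. It was 0.23 (limma adjusted p = 0.0238) by median coverage. The median over the transcript used there was 0 reads in each CD24- library and 1, 5 and 2 reads in CD24+ replicates 1, 2 and 3. Id2 thus met the filter of that fit through its CD24+ libraries alone.

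Id1 had 82.5, 86.7 and 157 CPM in CD24- replicates 1, 2 and 3 and 65.4, 95.4 and 63.7 CPM in CD24+ replicates 1, 2 and 3, over reads between bases 152562007 and 152563109 of chromosome 2 (mm9). CD24- replicate 3 was the highest library and CD24+ replicate 2 lay within the CD24- range. The log2 fold-change was -0.53 (95% interval -1.06 to 0.00, edgeR adjusted p = 0.0959) and it was -0.17 without CD24- replicate 3. Id3 had 124, 137 and 192 CPM in CD24- replicates and 87.9, 136 and 99.7 CPM in CD24+ replicates, over reads between bases 135699721 and 135701341 of chromosome 4 (mm9). The same libraries stood out as for Id1. Its log2 fold-change was -0.48 (95% interval -0.89 to -0.07, adjusted p = 0.0555), -0.26 without CD24- replicate 3 and -0.69 without CD24+ replicate 2 (adjusted p = 0.0114). The call for Id1 and Id3 thus depended on which library was included. With every library kept it also depended on the fit. Id3 passed as lower under DESeq2 (-0.50, adjusted p = 0.0156) and some other fits given at the end. Id1 passed as lower with no filter on low counts (-0.52, edgeR adjusted p = 0.0404). By median coverage neither passed (limma adjusted p = 0.199 for Id1 and 0.175 for Id3).

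**Figure D3:**
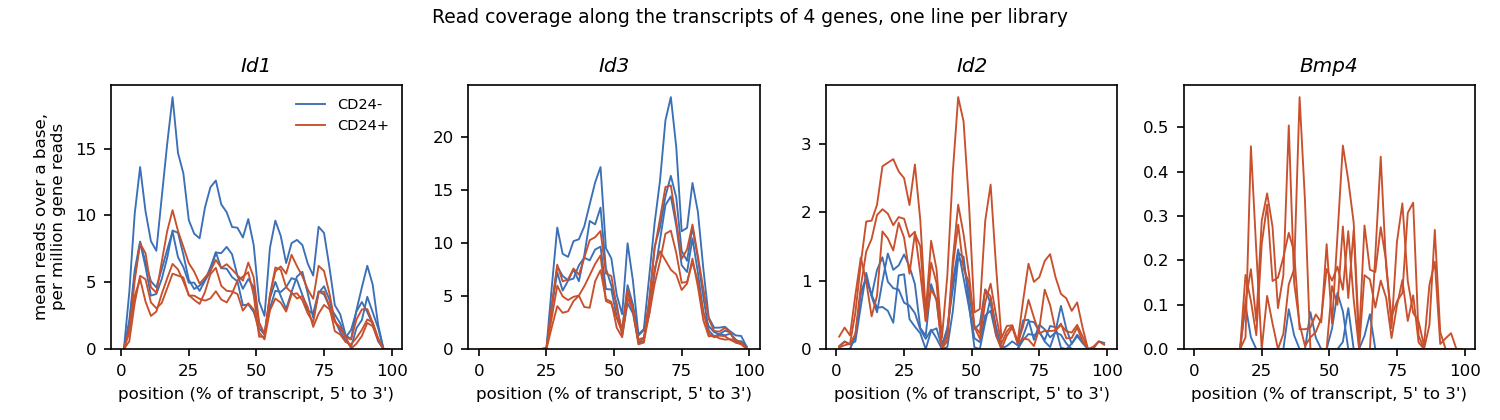
Mean number of reads over a base, scaled to gene reads like CPM (vertical axes) along the transcripts of Id1, Id3, Id2 and Bmp4 from the 5′ to the 3′ end (horizontal axes, percent of transcript length), 1 line per library, CD24- in blue and CD24+ in orange. One CD24- library stands above the others along most of Id1, the CD24+ lines of Id2 are above all CD24- lines along parts of the transcript, and Bmp4 has almost no CD24- coverage.

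The lower Id1 and Id3 means came from every part of the transcript. The log2 ratio of Id1 was -0.69 in the 5′ untranslated part, -0.58 in the coding part and -0.40 in the 3′ untranslated part, and for Id3 it was -0.53, -0.53 and -0.47. A share of 2.61% ± 0.277 of the Id1 reads of CD24- plates and 2.42% ± 0.521 of those of CD24+ plates (SD, n = 3) matched its unspliced transcript alone, with no difference passing an exact permutation test (2-sided p = 0.7). Ratios between the Id genes within a library were computed next. Reads of Id1 over Id3 had a ratio of 0.704 ± 0.0962 in CD24- and 0.695 ± 0.0532 in CD24+ cells (exact permutation p = 1.00). Reads of Id2 over Id1 had ratios of 0.122, 0.123 and 0.0842 in CD24- replicates 1, 2 and 3 and of 0.276, 0.381 and 0.336 in CD24+ replicates, which do not overlap. Id2 over Id3 likewise had ratios of 0.0814, 0.0783 and 0.0685 against 0.206, 0.268 and 0.214. With 3 plates a side the smallest p of the exact permutation test is 0.1, which both ratios reached (adjusted p = 0.12 over the 6 ratios computed), and these ratios were chosen after the values were seen.

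The libraries that stood out for Id1 and Id3 stood out for some listed BMP targets and not for others. CD24- replicate 3 was 1.81 times the next highest CD24- library for Id1, 1.41 times for Id3, 1.23 times for Id2 and 2.28 times for Smad7. CD24+ replicate 2 was the highest CD24+ library for each of these, by 1.46, 1.36, 1.70 and 1.51 times. For Smad6 the CD24+ ratio was 1.26 and that of CD24- replicate 3 was 1.04, and for Atoh8 they were 1.96 and 1.14. CD24- replicate 3 was the lowest CD24- library for the targets Msx1 (2.48 CPM) and Bambi (2.82 CPM), and CD24+ replicate 2 was not the highest for either. For Id4, CD24- replicate 3 was the highest of its group (2.82 CPM against at most 2.08 in the others) and CD24+ replicate 2 was not. For Bmpr1a and Bmp1, CD24- replicate 3 was 1.02 and 1.03 times the next highest CD24- library, and CD24+ replicate 2 was not the highest. Pcolce2, which is not on the target list, had both libraries highest, at 136 CPM against 96.6 and 96.7 and at 75.4 CPM against 55.2 and 54.6. These genes were set side by side after their values were seen, and the cause of the spread was not tested.

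**Figure D4:**
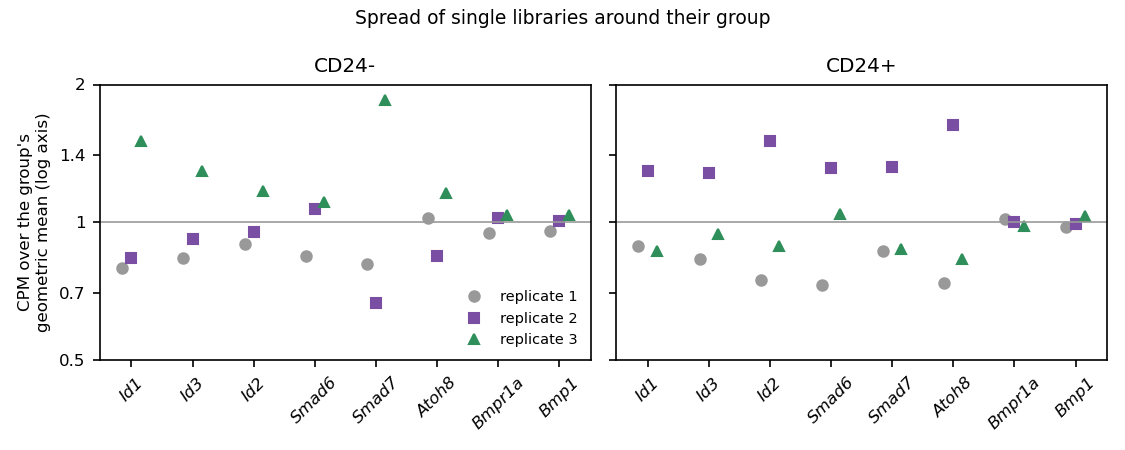
CPM of each library divided by the geometric mean of its group (vertical log axis) for 8 genes, in CD24- cells (left) and CD24+ cells (right), with a point shape and colour for each replicate. CD24- replicate 3 is highest for Id1, Id3, Id2, Smad6, Smad7 and Atoh8, for Smad6 by 1.04 times only, CD24+ replicate 2 is highest for the same 6 genes, and the points of Bmpr1a and Bmp1 lie together near 1.

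Of the 11 Id genes and other BMP targets listed, 9 were tested, with a median log2 fold-change of -0.03. Among them 2 were higher and 2 lower, where 23.8% and 22.3% of all tested genes were. The lower ones, Id4 and Bambi, met the read filter through CD24- libraries alone. Id2 and Smad6 were the higher ones. Id4, the other Id gene, fell from 2.30 ± 0.450 to 0.486 ± 0.287 CPM (log2 fold-change -1.99, edgeR adjusted p = 0.00143), and Bambi fell as given above. Atoh8, a BMP-responsive transcription factor, missed the threshold, at -0.03 (adjusted p = 0.934). Msx1 missed it narrowly, at 0.57 (adjusted p = 0.05 when rounded), with groups that did not overlap. It passed as higher when every sequence counts once (0.68, adjusted p = 0.0492) and over reads that match 1 GENCODE M21 gene (0.57, adjusted p = 0.0132). Msx2 and Hey1, with 9 and 7 reads in all, mostly in CD24+ libraries, were too low to be tested. Of the 3 E proteins that Id proteins bind, Tcf4 rose from 120 ± 17.9 to 233 ± 32.8 CPM (log2 fold-change 0.96, adjusted p = 1.80e-04, and 0.47 by median coverage, adjusted p = 0.00344), while Tcf12 (0.17, adjusted p = 0.151) and E2A, annotated Tcfe2a (0.14, adjusted p = 0.141), did not pass. Tcfe2a passed as higher over reads that match 1 GENCODE M21 gene (0.23, adjusted p = 0.0327). Over all pathway lists together, 80 genes were listed, 52 tested, 17 higher and 9 lower in CD24+ cells, where 23.8% and 22.3% of all tested genes were, with a median log2 fold-change of 0.14. As given above, some of these genes were tested only through the group in which they were high.

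Levels of different genes were compared over coding sequence, as coding reads per kilobase of coding positions at which a read can start, scaled to gene reads like CPM. In CD24- cells the order was Id3 (200 ± 45.9), Id1 (162 ± 63.8), Bmp1 (126 ± 6.10), Bmpr1a (43.7 ± 3.87), Id2 (18.5 ± 3.79), Bmpr2 (15.5 ± 0.842), Smad1 (10.5 ± 1.65), Smad6 (1.07 ± 0.334) and Bmp4 (0.181 ± 0.0806). Neighbours from Id3 to Bmp1 overlapped within their spread, as did Id2 and Bmpr2. In CD24+ cells Id3 (136 ± 38.8), Bmp1 (122 ± 2.24) and Id1 (110 ± 25.3) were again the highest and overlapped. Bmpr1a (58.9 ± 3.07), Id2 (39.6 ± 10.7), Bmpr2 (15.6 ± 0.334) and Smad1 (13.0 ± 0.703) followed, and Bmp4 (3.53 ± 0.587) reached the level of Smad6 (3.14 ± 1.09). Grem1 was lowest in both groups, with no coding read in CD24- cells.

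The 250 bases before the RefSeq start (GRCm38.p6) were available for 8 of the 10 genes, not for Bmp1 and Id1. They are shown for Bmp4 and Smad6, both higher in CD24+ cells, with capitals for the bases of the 2 motifs searched on both strands. These were GGCGCC, a GC-rich element that BMP Smads can bind, and CANNTG, the E box that E proteins bind. No overlap between the motifs was present.
Bmp4, chr14:46390670-46390919, minus strand: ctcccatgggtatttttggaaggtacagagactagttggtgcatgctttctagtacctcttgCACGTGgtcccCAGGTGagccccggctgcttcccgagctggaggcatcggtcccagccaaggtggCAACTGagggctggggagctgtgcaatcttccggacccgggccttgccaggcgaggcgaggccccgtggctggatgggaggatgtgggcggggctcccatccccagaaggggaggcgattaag
Smad6, chr9:64022060-64022309, minus strand: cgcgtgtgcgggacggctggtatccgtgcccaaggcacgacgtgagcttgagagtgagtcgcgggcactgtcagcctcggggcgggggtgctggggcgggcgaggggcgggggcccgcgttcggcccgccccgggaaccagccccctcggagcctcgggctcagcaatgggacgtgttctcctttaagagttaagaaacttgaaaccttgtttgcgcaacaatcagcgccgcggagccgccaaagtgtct

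Bmp4 has 3 E boxes here, starting 188, 177 and 123 bases before the gene start, and Smad6 has neither motif. At least 3 E boxes were in 12.2% of the 32851 RefSeq windows of this length and at least 1 in 66.2%. Of the 8 members, 2 had an E box (Bmp4 and Id2). GGCGCC was in 4 of the 8, Bmpr1a, Bmpr2, Id2 and Grem1, where 9.59% of all windows hold it. The windows of the members were richer in G and C, at 62.8% to 78.8% against a mean of 53.2% over all windows, so this share is not a like comparison for a motif of G and C alone. It lies 231 bases before the start of Id2. Of the 4 members with GGCGCC, Bmpr1a and Id2 were higher in CD24+ cells, Bmpr2 did not differ beyond its spread, and Grem1 had 2 reads. Bmp4 and Smad6, also higher, lack it. Whether the motif goes with a change was not tested. A match describes letters in this window only.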

How the data were processed

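Messenger RNA of 3 CD24- and 3 CD24+ plates of Mvt1 cells was sequenced. The authors trimmed reads to 47 nt, collapsed identical ones, placed them on the genome where they matched exactly and deposited the count of each distinct sequence with its location and annotation, without normalization. The build is mm9 per the submitters' processing notes, and the mapping tool is not given in the sources used here. Exact matching leaves out most junction reads and reads over a variant, and counts carry no strand.

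Deposited counts were summed per annotation, and repeats (7.56% to 10.2% of a library), small or noncoding RNA (0.357% to 0.469%) or reads without annotation (16.9% to 20.2%) were left out. Genes passing filterByExpr were tested with edgeR 4.0.16 in R 4.3.3, by its quasi-likelihood F test after TMM scaling, with p-values adjusted over all tested genes (Benjamini-Hochberg) and a threshold of 0.05. The alternatives used DESeq2 1.42.0, limma 3.58.1, other filters and counts, and each library left out. Plates of a group differed beyond sampling noise, to unlike degrees. The chi-square per degree of freedom was 1.75 between CD24- replicates 1 and 2. It was 10.3 and 12.0 between these and CD24- replicate 3, and 9.87 to 16.1 between CD24+ plates. The fit was tested on simulated data.

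Read positions in transcripts and coding lengths come from GENCODE M21 (GRCm38), and promoter sequences from RefSeq. Members and gene lists were chosen with earlier results of these data known. Named genes are the members, Cd24a and, in each list, up to 3 called genes with the largest change in each direction, plus listed genes too low to test. Nbl1, Twsg1, Msx1, Smad4, Smad7, Atoh8, Tcf12, Tcfe2a and the cell type markers were added after their values were seen. Eng, Smurf2, Fkbp1a, Ctdsp1, Ski, Map3k7, Map3k7ip1 and Usp15 are named only because an alternative changed their sign or call. Listed genes without reads were not analysed here.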

Additional observations from a re-analysis of the deposited data

How the results depend on the processing

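Bmp4, Bmpr1a, Smad6 and Id2 kept their direction and call under every alternative that could test them. With median coverage, quantile normalization and a regularizer of 10 tested by limma, 2 members were called (Bmpr1a, 0.31, and Id2, 0.23) and 10 of the listed pathway genes. Id2 met the filter of that fit through its CD24+ libraries alone, with a median of 0 reads in each CD24- library. Its call there is thus no separate support. Bmp4, Smad1 and Smad6 were left out there for a median coverage of 0 in most libraries over the transcript used, the longest basic protein-coding one. For Smad1 it was 0 in every library, and for Bmp4 and Smad6 it was above 0 in 2. A minimum of 1 CPM in 3 libraries left as many genes tested and called as the main filter. Id1 passed as lower with no filter on low counts (-0.52), without CD24- replicate 1 (-0.69) and without CD24+ replicate 2 (-0.76). Id3 passed as lower under DESeq2 (-0.50, adjusted p = 0.0156), without TMM (-0.50), with no filter (-0.47), without CD24- replicate 1 (-0.60), without CD24+ replicate 2 (-0.69) and with the replicate number as a block (-0.49, adjusted p = 0.0214). The replicate numbers did not pair the plates (correlations of deviations 0.0132, -0.271 and -0.323), and the block gave 4493 genes and 5 members called. The cause of these changes was not tested.

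The sign of Bmpr2 turned, always without a call, with no filter (0.0060), each distinct sequence counted once (0.11), the block (0.0016), without CD24- replicate 1 (0.049) and without CD24+ replicate 1 (0.014). Signs of uncalled listed genes also turned. Smurf2 had 0.073 on reads of 1 GENCODE gene and 0.061 by median coverage, Fkbp1a 0.0029 with no filter, and Atoh8 0.12 with sequences counted once and 0.053 on reads of 1 GENCODE gene. With a library left out, the ranges were -0.042 to 0.30 for Eng, -0.015 to 0.84 for Smad7, -0.12 to 0.054 for Smurf2, -0.022 to 0.025 for Fkbp1a and -0.51 to 0.15 for Atoh8.

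With each library left out, 4069 to 5358 genes, 4 to 6 members and 21 to 29 pathway genes were called. Log2 fold-changes ranged from -0.12 to -0.06 for Bmp1, 4.02 to 4.64 for Bmp4, 0.41 to 0.47 for Bmpr1a, -0.044 to 0.049 for Bmpr2, 0.13 to 0.25 for Smad1, 1.19 to 1.55 for Smad6, -0.76 to -0.17 for Id1, 0.81 to 1.34 for Id2 and -0.69 to -0.26 for Id3. Of 132 member values under alternatives, 118 kept direction and call, and of 801 values of other listed genes, 748 did. Of those others, 31 values lost their call, most often Xiap (9), Neo1 (6) and Col1a2 (5), and 9 gained one, of Msx1 in 2 and of Smad7, Ctdsp1, Ski, Map3k7, Map3k7ip1, Usp15 and Tcfe2a in 1 each. Few reads limit Grem1 (2 reads) and Bmp4 (233).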
